A study of Mus musculus with 6 samples.

Results

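The genes described here are 9 genes that mark macrophages of the spleen, read in bulk RNA sequencing of splenic endothelial cells. They were chosen by symbol from the deposited count table, which holds all 9 of them among 23207 gene symbols, and all 9 passed the filter on low counts. The libraries came from mice with the Apoe gene knocked out, which cannot make apolipoprotein E, and each of the 6 mice gave 1 library. For 8 weeks, on a high cholesterol diet, 3 mice (1601, 1602 and 1608) were given a control ASO (antisense oligonucleotide, a short synthetic strand that pairs with an RNA and lowers it). The other 3 mice (1603, 1604 and 1607) were given an ASO against Mlkl, which encodes the membrane-rupturing pseudokinase of necroptosis. The knockout and the diet were therefore common to both groups. Age, sex, the isolation of the cells and any gate are not stated in the sources used here.

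Macrophages of the red pulp, the blood-filtering part of the spleen, take up aged red cells and recycle their iron, and they depend on the transcription factor SPI-C. Macrophages of the marginal zone, at the border of the white pulp, capture particles and microbes from the blood through scavenger and lectin receptors. Both kinds live on signals through the receptor CSF1R and clear dying cells through receptors that bind phosphatidylserine directly or through bridging proteins. The 9 genes serve as markers of these macrophages, though Mertk and Axl are also known from endothelial cells. In bulk RNA, fewer cells of a type and less RNA per cell cannot be told apart.

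Library totals ran from 59988491 to 87776397 estimated counts. Mlkl measured 30.7 to 38.0 CPM (a gene's share of a library's counts, scaled to a common total) in control mice and 3.74 to 7.53 CPM in MLKL ASO mice, with no overlap (log2 fold change -2.55, standard error 0.27, edgeR adjusted p = 0.0655), so the target gene went with the labels in all 6 mice. The 12 endothelial markers, Pecam1 and Cdh5 among them, summed to 2884 to 5318 CPM, and none was at 0 in all libraries. The 9 macrophage genes summed to 254 to 704 CPM. Control mouse 1608 stood apart on the first principal component of all genes, and control mouse 1601 stood apart in the macrophage genes themselves, as described next.

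Control mouse 1601 held the highest level of 8 of the 9 macrophage genes, Mertk being the exception. Over all 19745 genes tested, 21.3% had their highest value in that mouse. Its summed macrophage level was 704 CPM, against 292 CPM in mouse 1602 and 254 CPM in mouse 1608 of the same group and 428, 284 and 376 CPM in mice 1603, 1604 and 1607. The MLKL ASO mice thus lay inside the range of the control group. Mouse 1608 held the lowest level of 5 of the 9 genes, while 24.3% of all genes had their lowest value there.

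**Figure D1:**
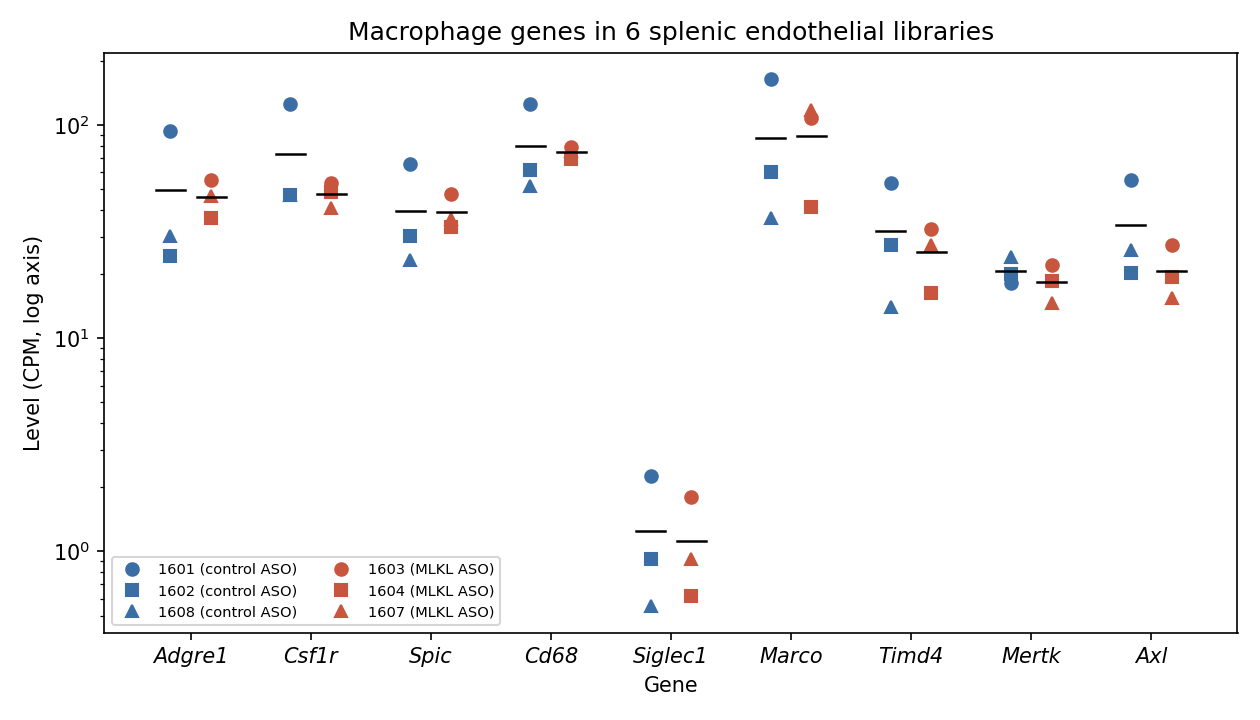
Level of each of the 9 macrophage genes in CPM on a log axis, 1 point per mouse (blue control ASO, red MLKL ASO), with a black bar at the mean of 3 mice. Mouse 1601, the blue circle, is highest for every gene except Mertk, and the points of the groups overlap for each gene.

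Start-site sequences of members were also read, because PU.1 and its relative SPI-C bind sites with the core GAGGAA. RefSeq windows on GRCm38.p6 of 250 bases upstream of the start site were read for 6 members (Spic, Cd68, Marco, Timd4, Mertk and Axl). No window was at hand for Adgre1 and Siglec1. Csf1r was left out, because sequence of its chromosome is not reported here. The core, searched on both strands (GAGGAA or TTCCTC), occurred in 3 of the 6, Cd68, Marco and Axl, and in 23.3% of 32851 such windows of all genes. Cd68 (chr11:69666171-69666420, minus strand) and Marco (chr1:120505025-120505274, minus strand) are shown as genes that were high in mouse 1601 and hold the core, and Mertk (chr2:128698665-128698914, plus strand) as the gene that was not high there. Capitals mark the core, and each line runs 5′ to 3′ towards the start site.
Cd68: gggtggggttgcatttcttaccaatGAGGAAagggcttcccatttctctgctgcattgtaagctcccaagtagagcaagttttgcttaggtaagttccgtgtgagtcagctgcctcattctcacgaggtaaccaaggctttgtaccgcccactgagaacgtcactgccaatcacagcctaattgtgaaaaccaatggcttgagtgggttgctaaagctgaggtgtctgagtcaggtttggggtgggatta
Marco: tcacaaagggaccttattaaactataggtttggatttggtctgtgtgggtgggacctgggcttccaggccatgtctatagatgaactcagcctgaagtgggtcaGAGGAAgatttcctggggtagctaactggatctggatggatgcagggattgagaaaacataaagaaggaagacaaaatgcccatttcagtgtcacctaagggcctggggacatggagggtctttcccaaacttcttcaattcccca
Mertk: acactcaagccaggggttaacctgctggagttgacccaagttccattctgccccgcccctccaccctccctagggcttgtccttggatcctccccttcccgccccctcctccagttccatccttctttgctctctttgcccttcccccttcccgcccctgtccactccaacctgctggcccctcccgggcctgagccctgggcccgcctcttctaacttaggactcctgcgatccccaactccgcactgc
The core began 225 bases upstream of the start of Cd68 and 146 bases upstream of that of Marco. Spic and Timd4, which were also highest in mouse 1601, have no such letters in these windows. Other forms of the site were not searched, so a window without these letters may still hold one. A match describes letters only and no binding was measured here. Whether the core bears on the levels in mouse 1601 was not tested.

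Markers of other cells moved with the macrophage genes in mouse 1601. Relative to the mean of the other 2 control mice, the summed level was 2.58 times as high for the macrophage genes, 2.19 times for the 8 T cell markers, 1.99 times for the 6 B cell markers, 1.58 times for the 7 dendritic cell markers and 4.95 times for the 8 neutrophil markers. It was also 2.63 times as high for the 7 erythroid and 2.01 times for the 8 fibroblast and mural markers. The endothelial sum was 0.609 times that mean, 2884 CPM in mouse 1601 against 4153 and 5318 CPM in mice 1602 and 1608. The erythroid markers summed to 13928 to 38932 CPM in control and 21395 to 47490 CPM in MLKL ASO mice, and the fibroblast and mural markers to 22.7 to 110 CPM and 72.1 to 93.3 CPM. Sums did not overlap between the groups for the T cell markers, at 151 to 184 CPM in MLKL ASO and 224 to 583 CPM in control mice. The dendritic cell sums, 290 to 357 CPM against 403 to 641 CPM, did not overlap either. Ccr7 was the largest part of that sum in each mouse, at 162, 142 and 210 CPM in MLKL ASO and 481, 273 and 211 CPM in control mice. Of the 7 dendritic cell markers, 6 lay below 0 and 1, Itgax, above (log2 fold change 0.34). Ccr7 and Flt3 were apart between the groups, as were 18.7% of all genes tested in either direction. Itgax, Zbtb46, Xcr1, Clec9a and Siglech overlapped. Zbtb46, the next largest part of the sum, measured 93.0, 92.7 and 158 CPM in control and 109, 107 and 109 CPM in MLKL ASO mice. The separation of the dendritic cell sums thus went with Ccr7. The part of these other cells in the values of the macrophage genes was not tested.

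**Figure D2:**
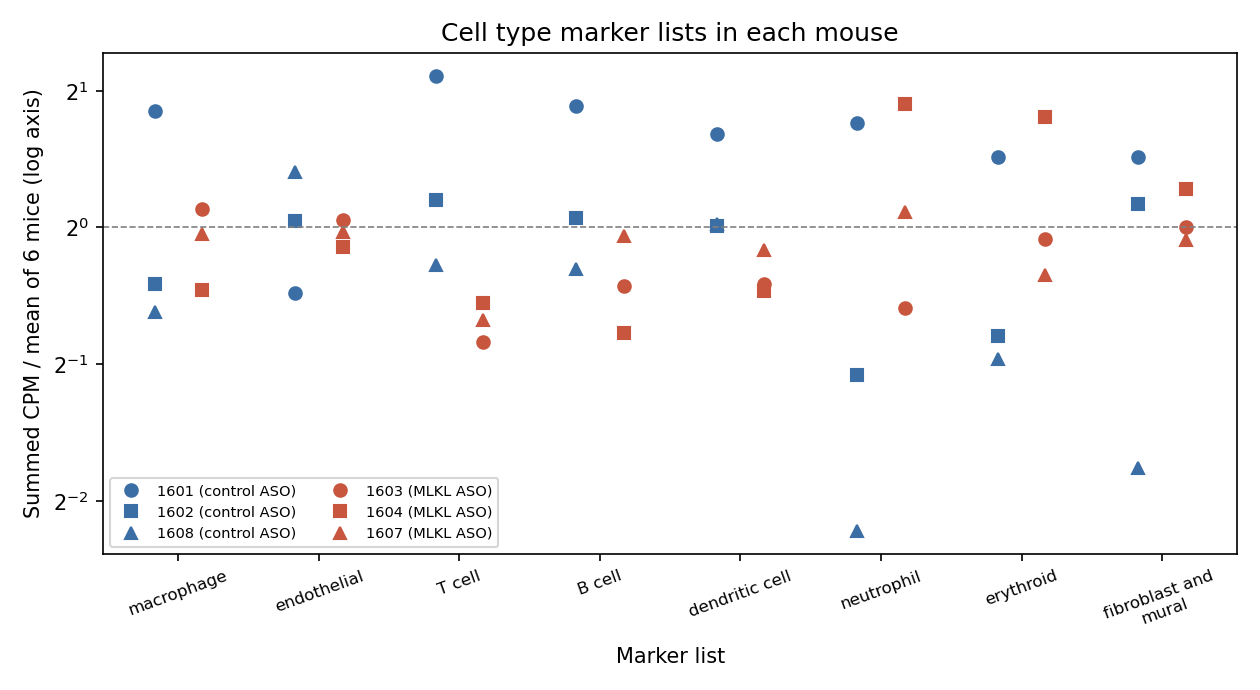
Summed CPM of the macrophage genes and of 7 marker lists in each mouse, divided by the mean over 6 mice, on a log axis (blue control ASO, red MLKL ASO). Mouse 1601, the blue circle, is highest for the macrophage, T cell, B cell, dendritic cell and fibroblast and mural lists, second to mouse 1604 for the neutrophil and erythroid lists, and lowest for the endothelial list.

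Between the groups, 0 of the 9 macrophage genes passed the threshold in edgeR's quasi-likelihood test (adjusted p under 0.05 over all genes), where 0.0101% of all genes tested did. At an unadjusted p under 0.05 the count was also 0 (background 6.96% lower and 4.89% higher), and DESeq2 called 0 of them as well (background 2.42%). Groups did not overlap for 0 of the 9 genes, against 18.7% of all genes (9.71% lower and 9.02% higher). The log2 fold change (MLKL ASO over control ASO) was below 0 for 8 of 9 genes, with a median of -0.16, while 51.2% of all genes tested lay below 0 with a median of -0.0092. That count rests on mouse 1601: without it, 2 of 9 genes lay below 0, the median was 0.38, and 48.3% of all genes lay above 0.

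Csf1r encodes the receptor for CSF1 and IL-34, the growth factors on which macrophages depend. It measured 125, 46.9 and 47.1 CPM in control mice 1601, 1602 and 1608, and 53.7, 48.4 and 41.1 CPM in MLKL ASO mice 1603, 1604 and 1607. Mouse 1601 was alone at the high end, and the other 5 mice lay close together. The group means were 73.2 ± 45.3 CPM (SD, n = 3) and 47.7 ± 6.35 CPM (SD, n = 3), and the log2 fold change was -0.62 (standard error 0.39, edgeR adjusted p = 0.568). Its 95% interval ran from -1.52 to 0.29. Without mouse 1601 the value was 0.0056 (edgeR adjusted p = 0.993).

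Spic encodes SPI-C, the factor that red pulp macrophages need to develop. It measured 65.6, 30.1 and 23.4 CPM in control and 47.4, 33.1 and 36.5 CPM in MLKL ASO mice. The means, 39.7 ± 22.7 and 39.0 ± 7.48 CPM (SD, n = 3), differed by a log2 fold change of -0.025 with an interval from -0.90 to 0.85 (edgeR adjusted p = 0.989). All MLKL ASO mice lay between mouse 1601 and the other control mice.

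Adgre1 encodes the adhesion receptor that the F4/80 antibody recognises, the usual surface marker of red pulp macrophages. It measured 94.2, 24.4 and 30.1 CPM in control and 55.0, 36.5 and 46.8 CPM in MLKL ASO mice. As with Spic, every MLKL ASO mouse fell between mouse 1601 and the other 2 controls. The means were 49.6 ± 38.8 and 46.1 ± 9.28 CPM (SD, n = 3), and the log2 fold change was -0.10 (standard error 0.49, edgeR adjusted p = 0.961).

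Cd68 encodes macrosialin, a heavily glycosylated membrane protein of macrophage lysosomes. Its levels were 125, 61.5 and 51.9 CPM in control and 79.3, 69.7 and 75.4 CPM in MLKL ASO mice, again with the latter between mouse 1601 and the other controls. The log2 fold change was -0.089 with an interval from -0.82 to 0.65 (edgeR adjusted p = 0.943).

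Without mouse 1601 the groups no longer overlapped for 3 of the 9 genes, Adgre1, Spic and Cd68, each higher in MLKL ASO mice, where 16.6% of all genes were separated in that direction. The log2 fold changes of the 5 remaining mice were 0.74 for Adgre1 (edgeR adjusted p = 0.232), 0.53 for Spic (edgeR adjusted p = 0.333) and 0.38 for Cd68 (edgeR adjusted p = 0.297). All 3 had an unadjusted p under 0.05, as did 6.91% of all genes in that direction, and none passed the adjusted threshold. Mouse 1601 was singled out after its values were seen. With each other mouse left out in turn, the log2 fold change of Adgre1 lay between -0.43 and 0.038.

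**Figure D3:**
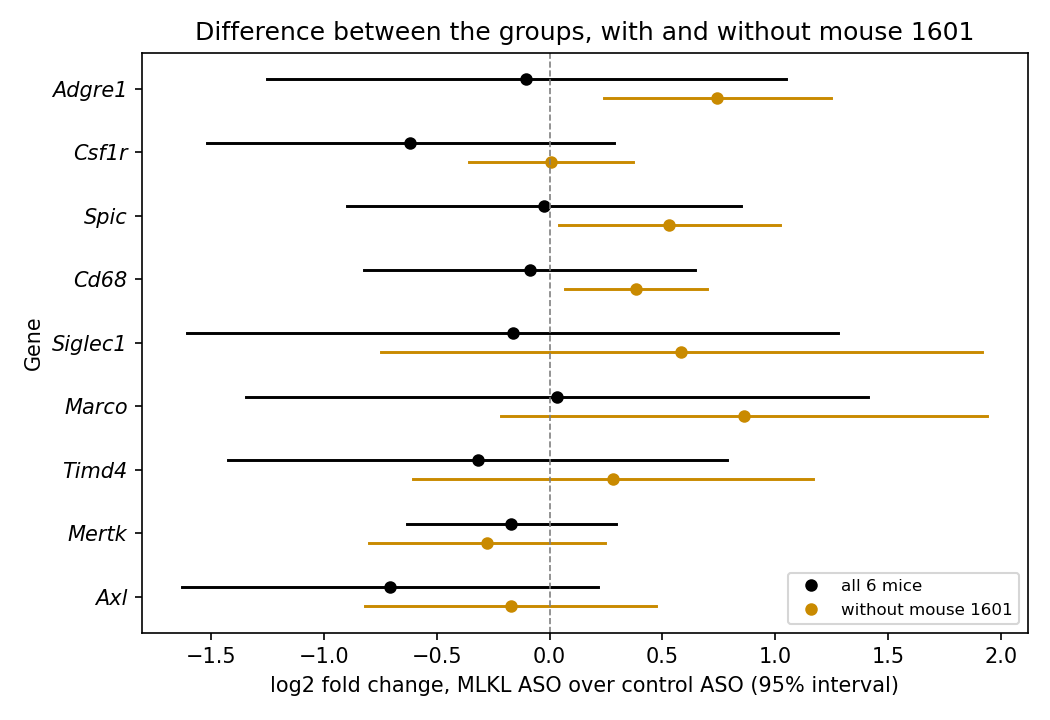
log2 fold change of each gene, MLKL ASO over control ASO, with its 95% interval from edgeR, for all 6 mice (black) and without control mouse 1601 (yellow). The black intervals all span 0; without mouse 1601 the intervals of Adgre1, Spic and Cd68 lie above 0 before adjustment.

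The scavenger and lectin receptors of the marginal zone spread most between mice. Marco, a collagenous scavenger receptor of marginal zone macrophages that binds bacteria and modified lipoproteins, measured 164, 60.4 and 36.8 CPM in control and 108, 41.5 and 118 CPM in MLKL ASO mice. Mice 1601, 1603 and 1607 were high and mice 1602, 1604 and 1608 low, so high and low mice occurred in both groups, with a highest value 4.46 times the lowest. The group means of 87.1 ± 67.8 and 89.2 ± 41.5 CPM (SD, n = 3) gave a log2 fold change of 0.035 with a wide interval, -1.34 to 1.41 (edgeR adjusted p = 0.991). Its sign reversed when mouse 1602, 1603, 1607 or 1608 was left out.

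Siglec1 encodes sialoadhesin, the sialic acid receptor of the metallophilic macrophages at the inner border of the marginal zone. It was scarce, with 2.27, 0.917 and 0.553 CPM in control and 1.80, 0.619 and 0.926 CPM in MLKL ASO mice, from 39.1 to 183 estimated counts per library. Mice 1601 and 1603 were high, 1 from each group. A log2 fold change of -0.16 had an interval from -1.61 to 1.28 (edgeR adjusted p = 0.947), so neither a 2-fold rise nor a 2-fold fall could be told from no difference.

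Timd4 encodes TIM-4, a receptor that binds phosphatidylserine on dying cells and marks long-lived tissue macrophages. It measured 53.7, 27.4 and 14.0 CPM in control and 32.5, 16.4 and 27.5 CPM in MLKL ASO mice. Mice 1608 and 1604 were the lowest of their groups. The means, 31.7 ± 20.2 and 25.5 ± 8.25 CPM (SD, n = 3), differed by less than the spread of the control group (log2 fold change -0.32, standard error 0.47, edgeR adjusted p = 0.831).

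Mertk and Axl are the receptor tyrosine kinases of the TAM family, which recognise dying cells through the bridging proteins GAS6 and protein S. Mertk was the steadiest of the 9 genes: 18.1, 20.02 and 24.2 CPM in control and 22.1, 18.6 and 14.7 CPM in MLKL ASO mice. Its highest value was 1.65 times its lowest, against 2.41 to 4.46 times for the other 8 genes. The log2 fold change of -0.17 had the narrowest interval, from -0.63 to 0.29 (edgeR adjusted p = 0.774). Axl measured 55.4, 20.3 and 26.1 CPM in control and 27.5, 19.5 and 15.5 CPM in MLKL ASO mice. Its difference of -0.71 (standard error 0.39, edgeR adjusted p = 0.523) lay farthest from 0 among the 9 genes and was -0.17 without mouse 1601. In the authors' deposited table, Axl has a log2 fold change of -0.70 with an adjusted p of 0.449, and Csf1r one of -0.61 with an adjusted p of 0.580.

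Set per kilobase of the longest coding transcript in GENCODE M21, an annotation that may differ from the one the authors used, the median level over 6 mice was highest for Cd68, at 59.0 CPM per kilobase. Marco followed at 43.8, Spic at 19.7, Adgre1 at 12.9, Timd4 at 12.6 and Csf1r at 10.2 CPM per kilobase. Axl, at 5.43, Mertk, at 4.49, and Siglec1, at 0.144 CPM per kilobase, closed the order. Ranges over the 6 mice overlapped between every pair of neighbours in this order except Mertk and Siglec1, whose ranges were 3.41 to 5.63 and 0.0866 to 0.355 CPM per kilobase.

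The likeness of profiles was measured as the root mean square difference of standardised log2 CPM over the 6 mice, where 0 means the same pattern. Spic and Cd68 were the closest pair of members, at 0.21, then Siglec1 and Timd4, at 0.29, and Csf1r and Axl, at 0.30. Mertk lay at least 1.10 from each of the other 8 genes, which lay at most 0.96 from each other. These profiles share libraries and depth, and each except that of Mertk has its highest point in mouse 1601. Among 9494 genes with a mean of at least 10 CPM, the 5 most like Csf1r were Pnpla7, Fcho1, Ttc7, Parvg and Relt, at 0.11 to 0.16. Parvg, an actin-linked adapter of blood cells, measured 71.4, 32.6 and 28.2 CPM in control and 32.0, 31.1 and 28.1 CPM in MLKL ASO mice, with the same single high mouse.

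Ratios between members within a library need no scaling and take out any factor common to all macrophage genes. Of the 36 pairs of members, 5 had ratios that did not overlap between the groups. For each gene of these pairs, the share over all genes tested is given below. No share was computed over all pairs of genes. Each of these 5 set Csf1r or Axl against Adgre1, Spic or Cd68, and a ratio does not tell which of its genes differed. These ratios were examined after the levels had been seen. Csf1r relative to Cd68 was 1.002, 0.763 and 0.907 in control mice 1601, 1602 and 1608, and 0.678, 0.694 and 0.545 in MLKL ASO mice 1603, 1604 and 1607. Relative to Spic it was 1.91, 1.56 and 2.01 in control and 1.13, 1.46 and 1.13 in MLKL ASO mice. Mouse 1601, which was far above the others in level, lay close to mouse 1608 in both ratios.

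Adgre1 relative to Csf1r was 0.751, 0.519 and 0.639 in control and 1.02, 0.755 and 1.14 in MLKL ASO mice, a gap of 0.751 against 0.755 between the nearest mice. Adgre1 relative to Axl was 1.70, 1.202 and 1.15 in control and 2.005, 1.88 and 3.02 in MLKL ASO mice. Spic relative to Axl was 1.18, 1.48 and 0.897 against 1.73, 1.70 and 2.35. Csf1r relative to Axl overlapped, at 2.26, 2.31 and 1.81 against 1.96, 2.49 and 2.65, and so did Spic relative to Cd68, at 0.524, 0.489 and 0.450 against 0.598, 0.476 and 0.484.

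The differences in log2 ratio (MLKL ASO minus control ASO) were -0.48 for Csf1r to Cd68 and -0.56 for Csf1r to Spic. They were 0.61 for Adgre1 to Csf1r, 0.76 for Adgre1 to Axl and 0.71 for Spic to Axl. Each had an exact two-sided permutation p = 0.1, the smallest that 3 mice against 3 allow, and 0.72 after adjustment over the 36 pairs, so none passed. Csf1r was lower without overlap relative to 3 of the 8 other members, and relative to 12.6% of all genes tested. Axl was lower relative to 2 of 8 members and 10.7% of all genes. On the other side of these pairs, Adgre1 was higher relative to 2 of 8 members and 2.26% of all genes. Spic was higher relative to 2 of 8 members and 4.08% of all genes, and Cd68 relative to 1 of 8 and 4.31%. Leaving out each mouse in turn kept the difference between -0.59 and -0.37 for Csf1r to Cd68 and between -0.69 and -0.49 for Csf1r to Spic. Dendritic cells and monocytes also express Csf1r. Of the dendritic cell markers, Ccr7 and Flt3 were lower in MLKL ASO mice without overlap, and the others overlapped, as given above. The part of dendritic cells and monocytes in these ratios was not tested.

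**Figure D4:**
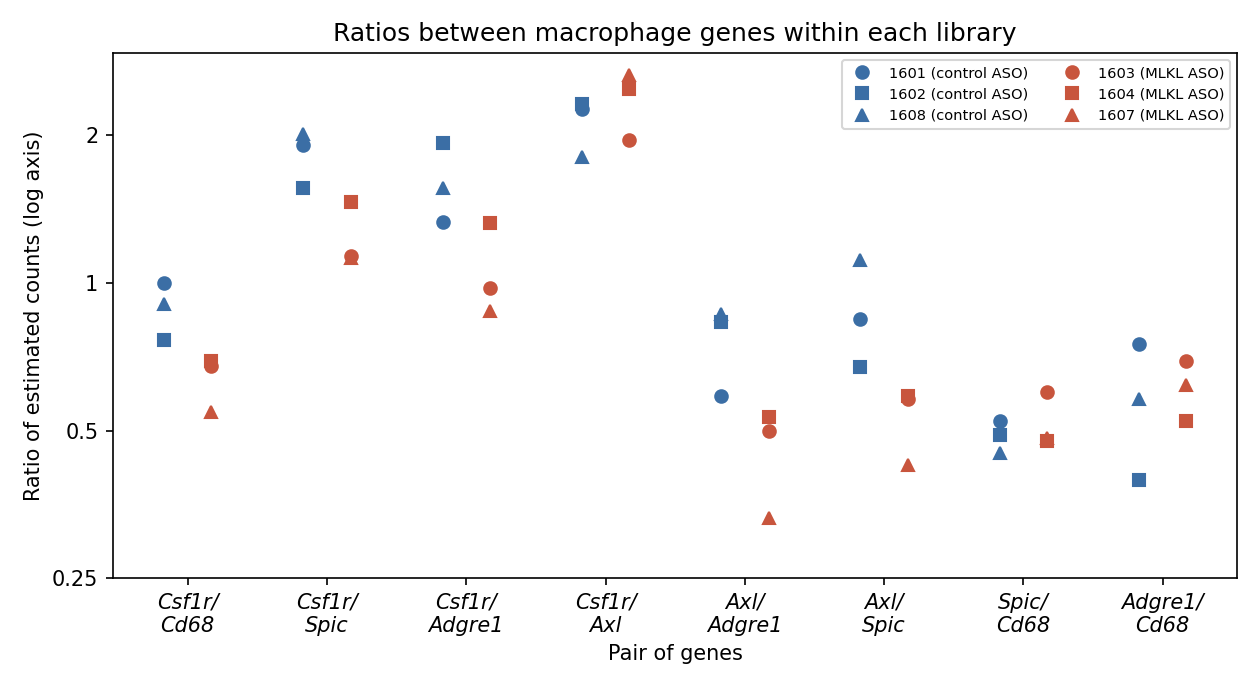
Ratio of estimated counts of 2 macrophage genes within each library, on a log axis, 1 point per mouse (blue control ASO, red MLKL ASO). Csf1r relative to Cd68, Spic and Adgre1, and Axl relative to Adgre1 and Spic, are lower in every MLKL ASO mouse, while Csf1r to Axl, Spic to Cd68 and Adgre1 to Cd68 overlap.

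Further genes were read from 9 lists with 104 genes, a few of them in more than 1 list, of which 103 were in the table and tested. The lists cover macrophage biology, except 1 list of 25 relatives of the members by protein family, some of them genes of other cells. None of the 103 passed in edgeR (0 called). At an unadjusted p under 0.05, 13 were lower (12.6%, against 6.96% of all genes) and 2 higher (1.94%, against 4.89%). The list of relatives gave 4 of the 13 lower and 1 of the 2 higher, so these shares do not describe macrophage genes alone. DESeq2 called 3 lower (Hpgd, Havcr1 and Adgrb1) and 1 higher (Fcgr4), 4 of 103 genes, beside 2.42% of all genes called by DESeq2 in either direction.

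Of 14 other red pulp genes, 9 lay below 0 and 5 above, with a median log2 fold change of -0.14 that was 0.33 without mouse 1601. Hpgd, the enzyme that inactivates prostaglandins, measured 53.6, 54.2 and 65.4 CPM in control and 36.9, 37.3 and 28.7 CPM in MLKL ASO mice. The groups were apart, and mouse 1601 did not stand out (log2 fold change -0.75, standard error 0.15, edgeR adjusted p = 0.241, DESeq2 adjusted p = 0.00745). Hmox1, the haem-degrading oxygenase, measured 109, 39.5 and 61.4 CPM in control and 78.0, 43.2 and 54.0 CPM in MLKL ASO mice. Slc40a1, the iron exporter ferroportin, measured 322, 131 and 173 against 201, 106 and 124 CPM, and Vcam1, an adhesion molecule of both endothelium and red pulp macrophages, 391, 261 and 425 against 332, 263 and 216 CPM. The groups overlapped for these 3 genes.

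Of 5 further genes of the marginal zone, 3 lay below 0 and the median was -0.063, or 0.24 without mouse 1601. Nr1h3, the oxysterol receptor LXRα that marginal zone macrophages need, measured 32.1, 17.5 and 19.3 CPM in control and 21.4, 21.8 and 22.7 CPM in MLKL ASO mice. Msr1, a relative of Marco, was low, at 2.60, 0.639 and 0.752 against 2.32, 3.28 and 0.938 CPM. Ltbr, the lymphotoxin receptor that shapes the marginal zone, measured 21.9, 21.6 and 42.7 against 21.3, 25.7 and 23.6 CPM, and Cd209d, a lectin of the SIGN family, 4.56, 1.88 and 1.12 against 2.06, 0.815 and 2.19 CPM. None of these 4 genes separated the groups.

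The ligands of CSF1R gave no call. Csf1 measured 30.2, 33.5 and 28.0 CPM in control and 24.6, 28.1 and 17.3 CPM in MLKL ASO mice, where mouse 1604 lay just above mouse 1608 (log2 fold change -0.39, edgeR adjusted p = 0.478). Il34 was lower in level, at 2.06 to 5.64 CPM over all mice. Of the 11 ligands and factors, 7 lay below 0, with a median of -0.13. Spi1, which encodes PU.1, the master factor of myeloid cells, measured 104, 50.9 and 35.0 against 40.9, 50.1 and 24.8 CPM (edgeR adjusted p = 0.546). Groups were apart for Irf8, a factor of the monocyte and dendritic cell lineages that other cells also express, which measured 340, 327 and 406 against 261, 268 and 266 CPM (edgeR adjusted p = 0.327). Of 5 genes that sense or handle haem upstream of Spic, 3 lay below 0. Keap1, which holds the oxidative stress factor NRF2 in check, was apart, at 44.7, 36.0 and 45.8 against 35.2, 33.1 and 31.2 CPM (edgeR adjusted p = 0.397), while Bach1, the haem-sensing repressor of Spic, was not, at 19.0 to 34.0 CPM in control and 21.6 to 24.0 CPM in MLKL ASO mice. Blvrb, a biliverdin reductase, measured 98.6 to 187 against 131 to 215 CPM, and Mafk, a partner of BACH1 on DNA, 28.2 to 48.2 against 29.0 to 34.7 CPM, both with overlap.

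For the uptake of dying cells, 9 of 14 tested genes lay below 0, with a median of -0.10. The TAM ligands were plentiful in these libraries: Gas6 measured 151, 86.6 and 122 CPM in control and 112, 135 and 95.3 CPM in MLKL ASO mice, and Pros1, which encodes protein S, 383, 513 and 786 against 597, 628 and 681 CPM. Neither separated the groups. Tyro3, the remaining TAM receptor, was scarce, at 0.545, 1.29 and 1.39 against 1.17, 3.02 and 2.36 CPM (edgeR adjusted p = 0.459). Stab1, a scavenger receptor of sinus endothelium and macrophages, measured 60.7, 76.9 and 119 against 116, 109 and 139 CPM, with only mouse 1608 of the controls inside the MLKL ASO range (edgeR adjusted p = 0.469). Adgrb1, a phosphatidylserine receptor at the edge of detection, measured 0.355 to 1.44 CPM in control and 0.113 to 0.195 CPM in MLKL ASO mice (edgeR adjusted p = 0.331, DESeq2 adjusted p = 0.0490).

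Of 15 general myeloid genes, 10 lay below 0, with a median of -0.16 that was 0.28 without mouse 1601. Fcgr4, an activating receptor for IgG on macrophages, neutrophils and patrolling monocytes, had the opposite sign. It measured 15.9, 15.4 and 12.4 CPM in control mice 1601, 1602 and 1608, and 33, 88.8 and 54.7 CPM in MLKL ASO mice 1603, 1604 and 1607. Every MLKL ASO mouse lay above every control mouse, and mouse 1601 did not stand out from the other controls. The log2 fold change was 2.02 in edgeR (adjusted p = 0.166, above the threshold), DESeq2 gave an adjusted p of 4.72e-06, and the authors' deposited table has 2.02 with an adjusted p of 4.01e-06. With each mouse left out in turn it stayed between 1.58 and 2.29. Neutrophil markers, with the mice listed as for Fcgr4, summed to 1717, 477 and 216 CPM in control and 670, 1886 and 1090 CPM in MLKL ASO mice. Mouse 1601 held 4.95 times the mean of the other control mice in this sum, and 1.14 times in Fcgr4. The part of neutrophils in the difference of Fcgr4 was not tested. Clec7a, the beta-glucan receptor dectin-1, followed the macrophage pattern, at 39.7, 16.9 and 9.28 against 11.0, 11.5 and 14.6 CPM.

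Of 8 monocyte genes, 5 lay below 0, with a median of -0.43 that was 0.14 without mouse 1601. Ace, the angiotensin-converting enzyme, carried by endothelium and patrolling monocytes, was apart at 32.0, 22.2 and 23.5 against 11.5, 15.2 and 18.5 CPM (edgeR adjusted p = 0.342). Cx3cr1, the fractalkine receptor of patrolling monocytes, was not, at 16.2, 6.62 and 4.99 against 5.31, 6.51 and 3.90 CPM, nor was Plac8, at 306, 183 and 115 against 141, 145 and 126 CPM. Of 9 genes of lipid-laden macrophages, 8 lay below 0, with a median of -0.40 that was 0.051 without mouse 1601. Groups were apart for Gpnmb, a lysosomal glycoprotein, at 3.37, 2.53 and 1.63 against 0.844, 1.15 and 1.39 CPM, and for Fabp5, a fatty acid carrier, at 53.8, 65.4 and 81.9 against 49.9, 52.8 and 46.3 CPM (edgeR adjusted p = 0.352 and 0.390). Reads counted for Apoe, the gene disrupted in these mice, were 53.9, 41.7 and 73.7 against 32.3, 31.4 and 38.7 CPM (edgeR adjusted p = 0.342).

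Relatives of the members by protein family lay below 0 in 19 of 25 genes, with a median of -0.43 that was -0.13 without mouse 1601. Havcr1, which encodes TIM-1, a relative of TIM-4 found on lymphocytes, measured 6.74, 3.99 and 4.33 CPM in control and 2.14, 2.82 and 1.74 CPM in MLKL ASO mice (log2 fold change -1.17, edgeR adjusted p = 0.327, DESeq2 adjusted p = 0.0205). Cd22, a sialic acid receptor of B cells and relative of Siglec1, was also apart, at 137, 71.6 and 66.1 against 46.0, 37.5 and 53.0 CPM (edgeR adjusted p = 0.342), and the B cell markers summed to 953 to 2175 CPM in control and 687 to 1125 CPM in MLKL ASO mice. Spib, a relative of Spic that B cells and plasmacytoid dendritic cells use, measured 69.1, 27.3 and 39.0 against 20.9, 16.9 and 28.7 CPM, and Flt3, a kinase of the Csf1r family on dendritic cells and progenitors, 15.7, 10.3 and 7.76 against 6.09, 6.75 and 7.36 CPM (edgeR adjusted p = 0.372 and 0.383). Siglece, the inhibitory relative of Siglec1 on myeloid cells, was the 1 relative higher at an unadjusted p under 0.05, at 18.2, 8.02 and 12 against 17.4, 28.6 and 22.7 CPM (edgeR adjusted p = 0.386), and the groups overlapped.

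**Figure D5:**
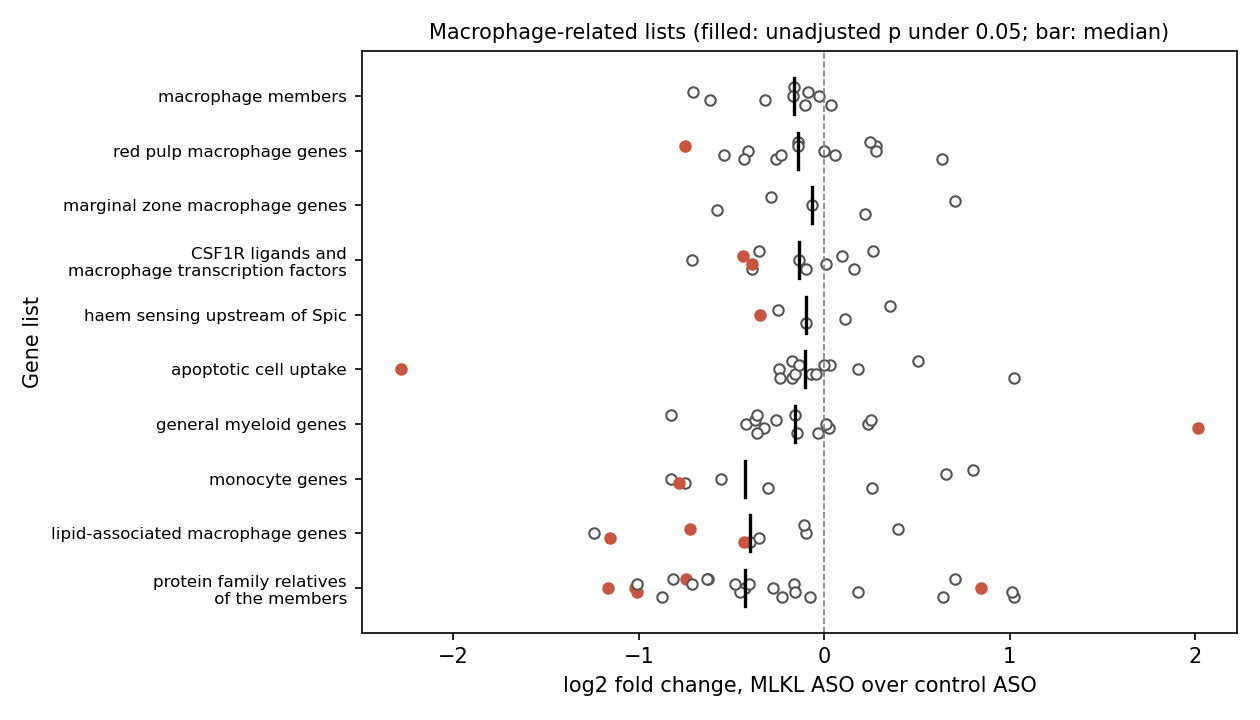
log2 fold change, MLKL ASO over control ASO, of each tested gene of the 9 macrophage genes and of 9 further lists, with a black bar at the median of each list and filled points for genes with an unadjusted p under 0.05. Fcgr4 is the filled point at 2.02 among the general myeloid genes, and no macrophage member is filled.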

How the data were processed

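RNA from splenic endothelial cells of 6 mice was sequenced, 1 library per mouse, from a directional mRNA kit, per the labels' protocols. The authors used fastp 0.20.1, Salmon 1.3.0 and DESeq2, per the submitters' processing notes; neither a genome build nor an annotation is given in the sources used here. The deposited estimated counts (69.3% of values not whole) assign reads shared by similar transcripts in part, so genes with close relatives, such as Adgre1 and Adgre4, are uncertain. The authors' deposited DESeq2 table holds, per the file headers, a mean normalised signal, a log2 fold change and its error, a Wald score, and p-values. Counts were rounded and tested in R 4.3.3 with edgeR 4.0.16 (default expression filter, TMM scaling, two-sided quasi-likelihood test, Benjamini-Hochberg adjustment over 19745 genes, threshold 0.05). Fold changes are edgeR's, with standard errors from the F statistic and 95% intervals. The p-values of edgeR set the difference between the groups against the spread between mice within them. Alternatives used DESeq2 1.42.0, limma 3.58.1 (voom with sample weights), other scalings and filters, and each mouse left out. Promoter windows are from RefSeq. Tests were checked on simulated data without an outlying mouse, unlike these data. Each simulated gene also took the spread typical of its level, with none of its own, so the rates need not hold here. Of 100 genes changed 2-fold and 100 changed 4-fold, edgeR called 33 and 95, beside 8 unchanged genes. DESeq2 called 41 and 98, beside 33 unchanged genes, and limma-voom 31 and 93, beside 6. The members and lists were chosen with earlier results of these data known. Named from the lists were genes with an unadjusted p under 0.05 or the 3 smallest p, ligands and close relatives; Bach1, Fcgr1, Fcgr3, Fcer1g, Cd5l, Cd209b, the C1q genes and the ratios were added after values were seen. 1 gene that this rule names is not reported here.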

Additional observations from a re-analysis of the deposited data

How the results depend on the processing

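Over all genes, edgeR called 1 gene higher and 1 lower. The counts were 2 and 2 with upper-quartile scaling, 237 and 290 with DESeq2, 9 and 13 with limma-voom and sample weights, and 4 and 3 without globin, immunoglobulin and T cell receptor genes. Leaving out each mouse gave 0 to 10 higher and 0 to 9 lower, with 10 and 9 without mouse 1608. None of the 116 alternative fits of the 9 macrophage genes gave a call, and 18 turned a sign. The members' median ran from -0.36 to 0.38 with each mouse left out, and 2 to 9 members lay below 0; voom put 5 below 0.

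Voom turned the log2 fold change of Adgre1 (0.44), Spic (0.18), Cd68 (0.098), Il34 (-0.048), Gas6 (0.19), Nr1h3 (0.12) and Hmox1 (0.13), and upper-quartile scaling that of Spic (0.0037). The cause was not tested. Leaving out each mouse turned the sign within these ranges: Adgre1 -0.43 to 0.74, Csf1r -0.86 to 0.0056, Spic -0.29 to 0.53, Cd68 -0.32 to 0.38, Siglec1 -0.69 to 0.58, Marco -0.33 to 0.86 and Timd4 -0.67 to 0.28, and for other genes Il34 -0.31 to 0.27, Gas6 -0.26 to 0.11, Pros1 -0.050 to 0.50, Nr1h3 -0.23 to 0.24, Hmox1 -0.54 to 0.19, Ltbr -0.47 to 0.12 and Cd209d -0.92 to 0.15. Mertk (-0.33 to -0.032) and Axl (-0.97 to -0.17) kept theirs. These fits leave 2 mice in 1 group. A minimum of 1 CPM in 3 libraries removed Siglec1, whose low counts limit its precision. No paired analysis was possible because the mouse numbers do not recur between the groups.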

Other observations

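Other Fc receptors for IgG were set beside Fcgr4, described above, after its values had been seen. Fcgr1, the high-affinity receptor, measured 9.08, 5.48 and 4.74 CPM in control mice 1601, 1602 and 1608 and 6.97, 5.22 and 3.92 CPM in MLKL ASO mice 1603, 1604 and 1607 (log2 fold change -0.26, edgeR adjusted p = 0.794). Fcgr3 measured 110, 47.7 and 42.4 against 59.9, 55.8 and 63.8 CPM (log2 fold change -0.16, edgeR adjusted p = 0.896), with the high value of mouse 1601 seen in the macrophage genes. Without mouse 1601 both signs turned, to 0.056 for Fcgr1 and 0.39 for Fcgr3 (edgeR adjusted p = 0.958 and 0.274), and limma-voom with all mice gave 0.081 for Fcgr3. Fcgr2b, the inhibitory receptor, which endothelium of the sinuses and B cells also carry, was lower in each MLKL ASO mouse, at 119, 160 and 120 against 107, 111 and 92.0 CPM (edgeR adjusted p = 0.424). Fcer1g, the shared signalling chain, measured 300, 255 and 225 against 280, 328 and 311 CPM (log2 fold change 0.24, edgeR adjusted p = 0.541). Whether these differences between receptors exceed chance was not tested.

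Cd5l, the C1q genes and Cd209b were chosen after their values had been seen, and the groups overlapped for each of them. Cd5l, a secreted scavenger protein of tissue macrophages, measured 158, 46.1 and 65.9 CPM in control and 189, 85.3 and 144 CPM in MLKL ASO mice, with a log2 fold change of 0.63 that was 1.299 without mouse 1601 (edgeR adjusted p = 0.638 with all mice). C1qa, C1qb and C1qc, the chains of complement C1q, had log2 fold changes of 0.058, 0.28 and -0.14 with all mice and 0.53, 0.62 and 0.35 without mouse 1601 (edgeR adjusted p = 0.209, 0.175 and 0.636 without it). Cd209b, the membrane lectin SIGN-R1 of marginal zone macrophages, measured 38.3, 8.84 and 10.2 against 22.7, 15.3 and 29.0 CPM, and its log2 fold change was 0.22 with all mice and 1.21 without mouse 1601 (edgeR adjusted p = 0.913 with all mice). In edgeR without mouse 1601, 6.91% of all genes tested were higher at an unadjusted p under 0.05. Of the 14 red pulp genes read beside the members, 3 lay below 0 in that fit, Hpgd (-0.82), Vcam1 (-0.36) and Slc40a1 (-0.097). Ltbr, of the marginal zone list, did so too (-0.47).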
